A study of Mus musculus with 3 samples.

Results

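The genes followed here encode podocalyxin (Podxl), the PDZ scaffolds that bind its tail (Slc9a3r1 and Slc9a3r2), the ezrin, radixin and moesin proteins that tie such scaffolds to actin (Ezr, Rdx and Msn), and 4 genes of the PAR and Crumbs machinery that sets up an apical surface (Pard3, Pard6b, Prkci and Crb3). They were taken by symbol from the gene table, 10 of 18245 genes. The genes were chosen by function and by measured values, since their levels and differences in these same 9 libraries were already known, and their levels and differences are given as a description, with no p-value. Where members past a threshold are counted, the share of all genes past it stands beside them and nothing is read from the count. RNA was measured in 3 kinds of C57BL/6 mouse cells from heart ventricle epicardium, with 3 libraries of each kind. CDC are cardiosphere-derived cells grown from epicardial fragments of 6-week-old mice without an inhibitor. CDC-EpiC are epicardial-like cells obtained from CDC after 10 µM SB-431542, which blocks TGF-beta receptor signalling, over 2 weeks, with colonies picked in cloning cylinders, and they stand for 1 clone. pEpiC are primary epicardial cells digested from hearts of 6- to 8-week-old mice and cultured without the inhibitor. CDC and pEpiC were used at passage 3. Inhibitor and clone cannot be told apart in CDC-EpiC, and nothing says which animal or culture each library came from, so the spread given here is between libraries. The methods name fewer replicates than the 3 columns of each kind and more than 1 library kit and sequencing platform, without saying which libraries came from which.

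Epithelial and mesothelial cells carry an apical surface with microvilli, and the epicardium is the mesothelium of the heart. Podocalyxin is a heavily sialylated membrane protein of the CD34 family, best known from kidney podocytes, where it keeps neighbouring cell surfaces apart. Its intracellular end binds the PDZ domains of NHERF scaffolds, which bind the amino-terminal domain of ezrin, radixin and moesin (ERM) proteins, whose other end binds actin filaments. PAR3, PAR6 and atypical protein kinase C mark the apical side and the junctions, and Crumbs proteins anchor PAR6 at the apical membrane.

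The libraries held 22008833 to 22756045 expected counts each. Levels of 1 gene across kinds are given in CPM, counts scaled to library size with TMM factors, and levels of different genes are set side by side only in TPM, which also corrects for length. Mesothelial markers were summed to 5922 to 6858 CPM in CDC-EpiC, 618 to 663 CPM in CDC and 426 to 484 CPM in pEpiC. A few abundant genes carry these sums, and of the 12 markers 6 were higher and 6 lower in pEpiC than in CDC, with Wt1 at 51.1 and 10.0 CPM and Upk3b at 69.4 and 229 CPM. The keratins Krt8 and Krt18 were at 1 to 9 counts in every CDC and CDC-EpiC library. Cdh1, the epithelial cadherin, was at 1 to 3 counts in the pEpiC libraries. Other such markers were present, with Krt7, Krt19 and Cdh1 at 8.55, 25.4 and 5.93 CPM in CDC-EpiC. In pEpiC Krt7, Krt8 and Krt18 were at 6.54, 2.76 and 2.03 CPM, each above CDC, and Krt19 was at 1.22 CPM, below CDC. Each kind labelled epicardial thus nearly lacked some epithelial markers and held others. The 10 macrophage markers were all found in pEpiC, with sums of 868, 336 and 309 CPM against 57.7 to 61.0 in CDC and 22.6 to 25.2 in CDC-EpiC. CDC libraries 1 and 2 held transcripts that library 3 nearly lacked. Myh6 had 191, 190 and 0 counts, Hba-a1 had 523, 894 and 0, and Alb had 660, 599 and 1. The origin of these transcripts was not tested. The 10 cardiomyocyte markers were summed to 138 to 155 CPM in pEpiC, 9.83 to 28.7 in CDC and 12.4 to 14.4 in CDC-EpiC. Most of the pEpiC sum was Tnnt2, at 145 CPM. In bulk RNA, fewer cells of a type and less RNA per cell cannot be told apart.

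In CDC-EpiC, 6 of the 10 genes stood well above both other kinds, namely Podxl, Slc9a3r1, Slc9a3r2, Ezr, Pard6b and Crb3, while Msn was lower and Rdx, Pard3 and Prkci lay close to CDC. The plot of CPM by library shows this split among the ERM genes and among the PAR genes. Ezr and Pard6b were high in CDC-EpiC, and Rdx and Pard3 were not.

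**Figure D1:**
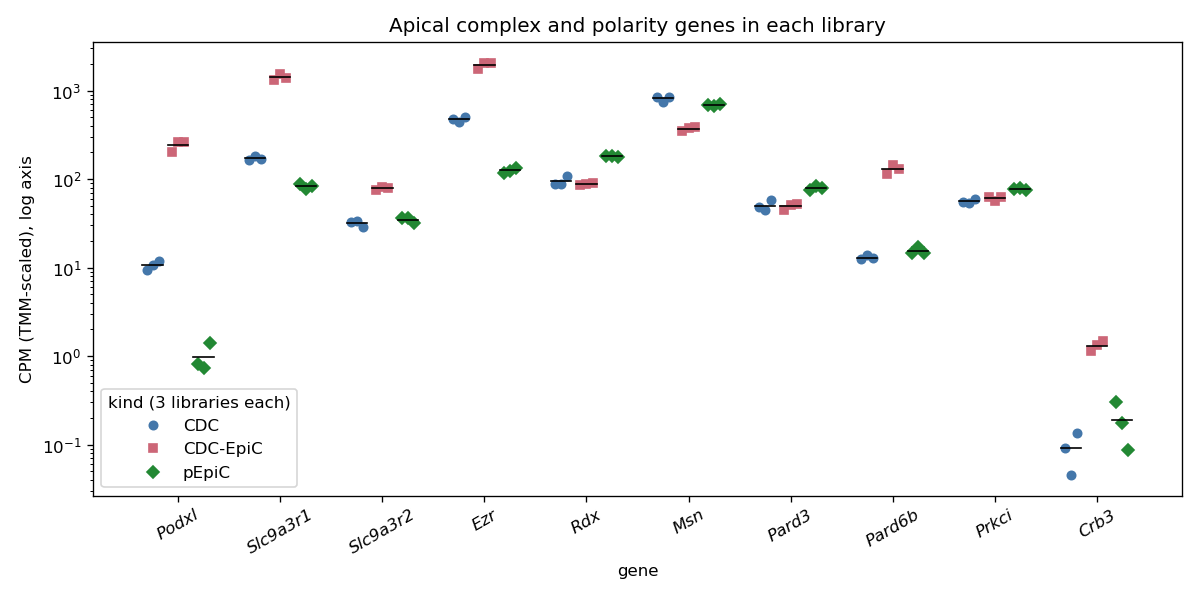
CPM after TMM scaling (log axis) of the 10 genes in each of 3 libraries of CDC, CDC-EpiC and pEpiC, where points are libraries and black lines are means. Podxl ranges from 0.741 CPM in a pEpiC library to 265 CPM in a CDC-EpiC library, whereas Prkci stays between 54.1 and 80.2 CPM in all 9.

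Podxl (chromosome 6, 31519488 to 31563981, minus strand, GRCm38) encodes the apical sialomucin itself. It measured 9.37, 10.8 and 11.7 CPM in the CDC libraries. In CDC-EpiC it measured 203, 265 and 259 CPM. In pEpiC it measured 0.824, 0.741 and 1.401 CPM. All CDC-EpiC libraries were thus high, all pEpiC libraries were low, and CDC lay between with no overlap. The log2 difference was 4.51 ± 0.12 (standard error, SE, of the fit) for CDC-EpiC against CDC and −3.46 ± 0.21 for pEpiC against CDC. Over the 3 libraries, 16276 counts in CDC-EpiC stood against 68 in pEpiC, a depth-corrected ratio of 245 (95% exact interval 193 to 316, counting error only). The interval leaves out the spread between libraries, and the ratio depends on the scaling. Its log2 value was 7.93 in the fit on counts, 8.27 with an offset for gene length and 7.55 between the mean TPM of the kinds. Podxl is also a known endothelial gene. Of 10 endothelial markers, Cdh5, Tie1, Emcn, Cldn5 and Robo4 were at 0 counts in all 3 CDC-EpiC libraries, while Tek (0.937 CPM) and Egfl7 (7.38 CPM) were higher there than in CDC (0.122 and 5.85 CPM), and the part of endothelial RNA in the Podxl level was not tested. The 10 endothelial markers were summed to 8.20 to 9.82 CPM in CDC-EpiC, 6.97 to 8.40 in CDC and 21.2 to 25.4 in pEpiC. Most of the pEpiC sum was Tek, at 17.6 CPM. Of 4 endothelial markers tested between pEpiC and CDC, 3 were higher in pEpiC and 1, Egfl7 (2.05 CPM), was lower.

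The scaffolds differed from each other in size of change. Slc9a3r1 (chromosome 11, 115163341 to 115181181, plus strand) encodes NHERF1, which holds transporters and podocalyxin near ERM proteins, and measured 162, 180 and 170 CPM in CDC. It measured 1324, 1554 and 1401 CPM in CDC-EpiC. It measured 88.6, 77.3 and 83.0 CPM in pEpiC. The order of kinds was therefore that of Podxl, with a log2 difference of 3.06 ± 0.09 for CDC-EpiC and −1.08 ± 0.07 for pEpiC, each against CDC. Slc9a3r2 (chromosome 17, 24639286 to 24650327, minus strand) encodes NHERF2, the related scaffold found with podocalyxin in podocytes, and measured 32.8, 34.0 and 28.9 CPM in CDC. It measured 74.3, 80.7 and 79.6 CPM in CDC-EpiC and 36.0, 35.9 and 32.1 CPM in pEpiC. CDC-EpiC libraries were above the others by 1.29 ± 0.08 on the log2 scale against CDC, and the CDC and pEpiC ranges overlapped.

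Among the ERM genes, Ezr and Msn moved in opposite directions in CDC-EpiC. Ezr (chromosome 17, 6738041 to 6782784, minus strand) encodes ezrin, the ERM protein typical of epithelial microvilli, and measured 472, 446 and 506 CPM in CDC. In CDC-EpiC it measured 1748, 2034 and 2045 CPM. In pEpiC it measured 118, 124 and 133 CPM. The 3 kinds did not overlap, and the log2 difference from CDC was 2.03 ± 0.09 in CDC-EpiC and −1.97 ± 0.07 in pEpiC. Msn (chromosome X, 96096042 to 96168552, plus strand) encodes moesin, the ERM protein typical of leukocytes and endothelium, and measured 844, 749 and 853 CPM in CDC. It measured 345, 382 and 389 CPM in CDC-EpiC and 683, 664 and 696 CPM in pEpiC. CDC-EpiC was the lowest kind, at −1.14 ± 0.09 on the log2 scale against CDC, and pEpiC lay at −0.30 ± 0.07. Macrophage marker sums in the same pEpiC libraries were 868, 336 and 309 CPM, and their part in the Msn level was not tested. Rdx (chromosome 9, 52047173 to 52088735, plus strand) encodes radixin and measured 87.3, 87.5 and 109 CPM in CDC. It measured 85.9, 87.2 and 90.4 CPM in CDC-EpiC and 183, 183 and 179 CPM in pEpiC. Here pEpiC was the high kind, at 0.90 ± 0.08 on the log2 scale against CDC, and the CDC and CDC-EpiC ranges overlapped.

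Set side by side per length, the makeup of the ERM family differed by kind. Ezr made up 39.8% ± 0.623 (SD, n = 3) of the summed ERM TPM in CDC, 84.3% ± 0.450 in CDC-EpiC and 15.6% ± 0.710 in pEpiC. Msn made up 54.5% ± 1.06, 12.9% ± 0.266 and 68.0% ± 0.599 in the same order. Rdx was the smallest share in CDC (5.71% ± 0.521) and CDC-EpiC (2.76% ± 0.184), whereas in pEpiC it was 16.4% ± 0.558, close to Ezr. Ezrin message was thus the main ERM message only in CDC-EpiC of these 3 kinds. The ERM sum was 683 ± 69.9 TPM in CDC, 1385 ± 123 in CDC-EpiC and 627 ± 12.04 in pEpiC. Slc9a3r1 made up 85.4% ± 1.16 of the 2 NHERF genes in CDC, 95.2% ± 0.231 in CDC-EpiC and 72.3% ± 1.65 in pEpiC. The NHERF sum was 183 ± 8.53, 1447 ± 96.9 and 145 ± 5.54 TPM in the same order. Sums in TPM are not matched across kinds, since on log2(TPM + 1) the median of all genes was 0.44 for pEpiC against CDC. Msn, for example, was at 426 TPM in pEpiC and 372 in CDC, but at 681 and 815 CPM. TPM also leaves in place a trend with gene length, 0.441 on the log2 scale per doubling for pEpiC against CDC. Effective lengths were 4280 bases for Rdx, 3874 for Msn and 3094 for Ezr. Shares, ratios and orders in TPM that are compared between pEpiC and the other kinds carry this trend.

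**Figure D2:**
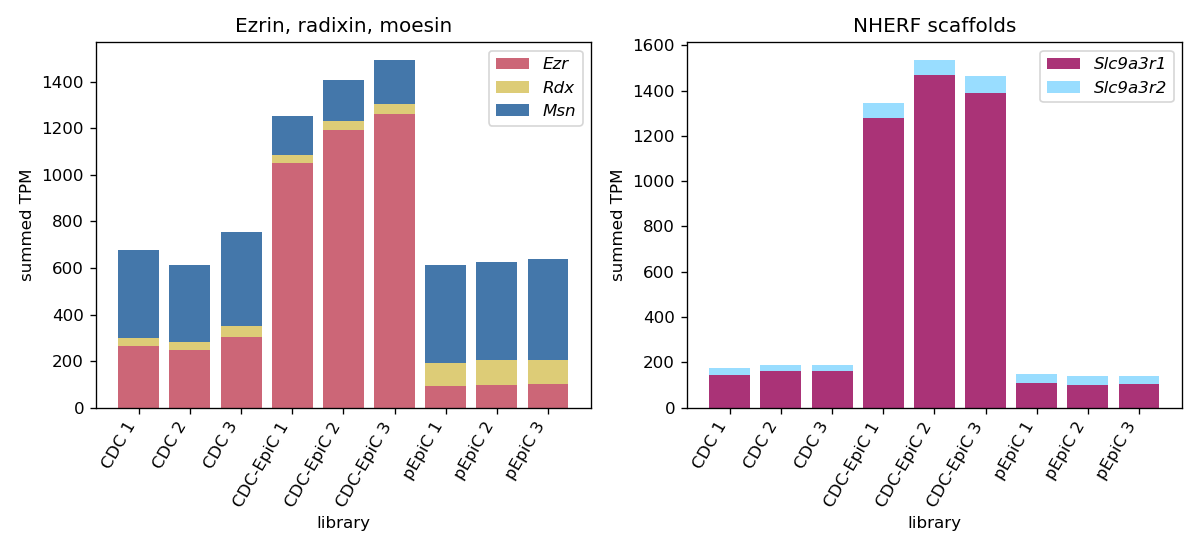
Summed TPM per library, stacked by gene, for the ERM genes (left) and the NHERF scaffolds (right), in 3 libraries of each kind. Ezr fills most of the CDC-EpiC bars and Msn most of the pEpiC bars. The NHERF bars of CDC-EpiC reach 1344 to 1536 TPM against 141 to 189 TPM elsewhere, and bar heights in TPM are not matched across kinds.

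In the PAR and Crumbs group, Pard6b and Crb3 were the genes that set CDC-EpiC apart. Pard6b (chromosome 2, 168081004 to 168101203, plus strand) encodes a PAR6 adaptor that joins Cdc42 to atypical protein kinase C, and measured 12.4, 13.9 and 12.7 CPM in CDC. In CDC-EpiC it measured 115, 143 and 128 CPM. In pEpiC it measured 14.5, 17.1 and 14.7 CPM. CDC and pEpiC were close to each other, with ranges that did not overlap, and CDC-EpiC was 3.30 ± 0.10 above CDC on the log2 scale. Crb3 (chromosome 17, 57059105 to 57065918, plus strand) encodes the small Crumbs protein of most epithelia and was found in 2, 1 and 3 counts in CDC. It had 26, 29 and 33 counts in CDC-EpiC, and its expected counts in pEpiC were 7.35, 3.80 and 1.65. The summed ratio of CDC-EpiC to CDC was 14.4 (95% exact interval 6.34 to 40.2), and that to pEpiC was 6.94 (3.85 to 13.5). The ratio to pEpiC depends on the scaling, since its log2 value was 2.76 in the fit on counts, 2.09 with an offset for gene length and 3.81 between the mean TPM of the kinds. The message was scarce in every kind, at 2.34 TPM in CDC-EpiC, and 14 of its 1564 exon bases overlap Dennd1c on the other strand.

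The other members of that machinery changed little in CDC-EpiC. Pard3 (chromosome 8, 127063893 to 127612286, plus strand) encodes the junctional scaffold PAR3 and measured 48.2, 44.8 and 57.2 CPM in CDC. It measured 44.4, 50.7 and 51.9 CPM in CDC-EpiC and 75.0, 82.6 and 78.6 CPM in pEpiC. Prkci (chromosome 3, 30995747 to 31052959, plus strand) encodes atypical protein kinase C iota and measured 55.4, 54.1 and 58.8 CPM in CDC. For both genes CDC-EpiC overlapped CDC and pEpiC was above both, since Prkci measured 62.1, 57.1 and 63.2 CPM in CDC-EpiC and 76.4, 80.2 and 75.0 CPM in pEpiC. The log2 difference of pEpiC from CDC was 0.61 ± 0.08 for Pard3 and 0.42 ± 0.06 for Prkci. Per length, Pard6b stood at 0.303 ± 0.0299 of the Prkci TPM in CDC, 2.81 ± 0.452 in CDC-EpiC and 0.258 ± 0.0197 in pEpiC.

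Promoter windows are shown for Crb3, Pard6b and Slc9a3r1, which were each higher in CDC-EpiC than in the other kinds, to show that genes with that pattern differed in the motifs they hold. Each window runs from 250 bases before to 50 after a RefSeq transcript start on GRCm38.p6, 5′ to 3′ on the plus strand. Capitals mark the E-box CACCTG, the site of Snail and ZEB factors, on either strand (CAGGTG on the other), and GNGTGGGNG, the core of the WT1 and EGR1 site, on either strand. Crb3 lies at chr17:57061981-57062280, Pard6b at chr2:168080754-168081053 and Slc9a3r1 at chr11:115163091-115163390.
Crb3: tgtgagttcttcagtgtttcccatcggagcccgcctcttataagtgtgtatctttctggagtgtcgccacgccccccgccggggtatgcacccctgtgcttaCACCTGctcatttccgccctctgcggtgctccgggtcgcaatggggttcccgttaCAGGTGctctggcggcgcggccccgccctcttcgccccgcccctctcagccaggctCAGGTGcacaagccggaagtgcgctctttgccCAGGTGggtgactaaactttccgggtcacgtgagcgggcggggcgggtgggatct
Pard6b: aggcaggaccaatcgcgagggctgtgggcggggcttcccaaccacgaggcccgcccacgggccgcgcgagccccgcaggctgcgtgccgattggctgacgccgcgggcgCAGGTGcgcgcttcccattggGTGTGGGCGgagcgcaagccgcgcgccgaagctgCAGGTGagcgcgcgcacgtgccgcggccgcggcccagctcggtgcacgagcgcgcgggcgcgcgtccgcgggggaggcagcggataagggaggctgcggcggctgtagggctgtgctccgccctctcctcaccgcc
Slc9a3r1: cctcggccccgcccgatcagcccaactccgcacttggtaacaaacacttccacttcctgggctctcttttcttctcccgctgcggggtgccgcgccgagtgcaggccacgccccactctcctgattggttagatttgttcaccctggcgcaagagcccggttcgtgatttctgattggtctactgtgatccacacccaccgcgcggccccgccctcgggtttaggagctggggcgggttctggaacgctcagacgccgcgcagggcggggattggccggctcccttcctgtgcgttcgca
The Crb3 window holds 4 E-boxes, and that of Pard6b holds 2 E-boxes and 1 GNGTGGGNG match, none overlapping another. RefSeq windows were found for 9 of the 10 genes, 13 windows in all, among which 5 held CACCTG and 5 held GNGTGGGNG. Of the 5 with CACCTG, 2 are overlapping Crb3 windows that hold the same E-boxes. The Pard3 window at chr8:127063806-127064105 held no E-box, and that at chr8:127299362-127299661 held 3. Pard3 lay close to CDC in CDC-EpiC. The Ezr window held no E-box, and Ezr was high in CDC-EpiC. A link between these motifs and the levels was not tested. Of all 32851 windows, 20.2% held CACCTG and 14.3% held GNGTGGGNG. These are matches of letters, and binding was not measured.

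The order of levels within each kind was also different. In CDC the order by TPM was Msn (372), Ezr (272), Slc9a3r1 (157), Rdx (39.1), Slc9a3r2 (26.6), Prkci (22.1), Pard3 (16.8), Pard6b (6.68), Podxl (3.49) and Crb3 (0.170), and no neighbours overlapped between libraries. In CDC-EpiC Slc9a3r1 (1379 TPM) and Ezr (1168 TPM) led, followed by Msn at 178 TPM. Podxl (83.5 TPM), Pard6b (69.8 TPM) and Slc9a3r2 (68.9 TPM) came next, with Pard6b overlapping each of its neighbours, and Rdx (38.1), Prkci (25.1), Pard3 (17.6) and Crb3 (2.34) followed without overlap. In pEpiC Msn led at 426 TPM, and Slc9a3r1 (105 TPM), Rdx (103 TPM) and Ezr (98.0 TPM) overlapped as neighbours. Prkci (42.2 TPM), Slc9a3r2 (40.0 TPM) and Pard3 (36.2 TPM) overlapped likewise, above Pard6b (10.9), Podxl (0.447) and Crb3 (0.167). Podxl was thus at rank 9 of 10 in both CDC and pEpiC and at rank 4 in CDC-EpiC.

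Across all genes, differences between kinds were common, which sets the scale for these counts. Between CDC-EpiC and CDC, 68.8% of 12976 tested genes passed an adjusted p of 0.05 (34.2% higher and 34.6% lower), 21.7% also differed at least 2-fold, and 72.1% had libraries that did not overlap. Of the 10 genes described here, 7 passed (6 higher and 1 lower), the same 7 at least 2-fold and without overlap, with a median log2 difference of 1.66 against 0.00 over all genes. Between pEpiC and CDC the shares of 13526 genes were 78.3% called, 39.8% higher, 38.5% lower, 30.1% at least 2-fold and 81.5% without overlap. Of 9 members tested, 7 passed (3 higher and 4 lower), 3 of them at least 2-fold, namely Podxl, Slc9a3r1 and Ezr, all lower, and 8 did not overlap, with a median of 0.07 against 0.02. On log2(TPM + 1) the members past the threshold were 9, with 6 higher and 3 lower. Beside them, 10443 of the 12559 genes tested on that scale passed, and 74.0% of those calls were higher. Between CDC-EpiC and pEpiC the shares of 13547 genes were 81.9% called, 40.3% higher, 41.5% lower, 35.9% at least 2-fold and 84.0% without overlap. All 10 members passed (6 higher and 4 lower), 7 of them at least 2-fold and all 10 without overlap, with a median of 1.96 against −0.02. The members were chosen with these differences known, so nothing is read from their shares. The 3 comparisons share libraries.

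**Figure D3:**
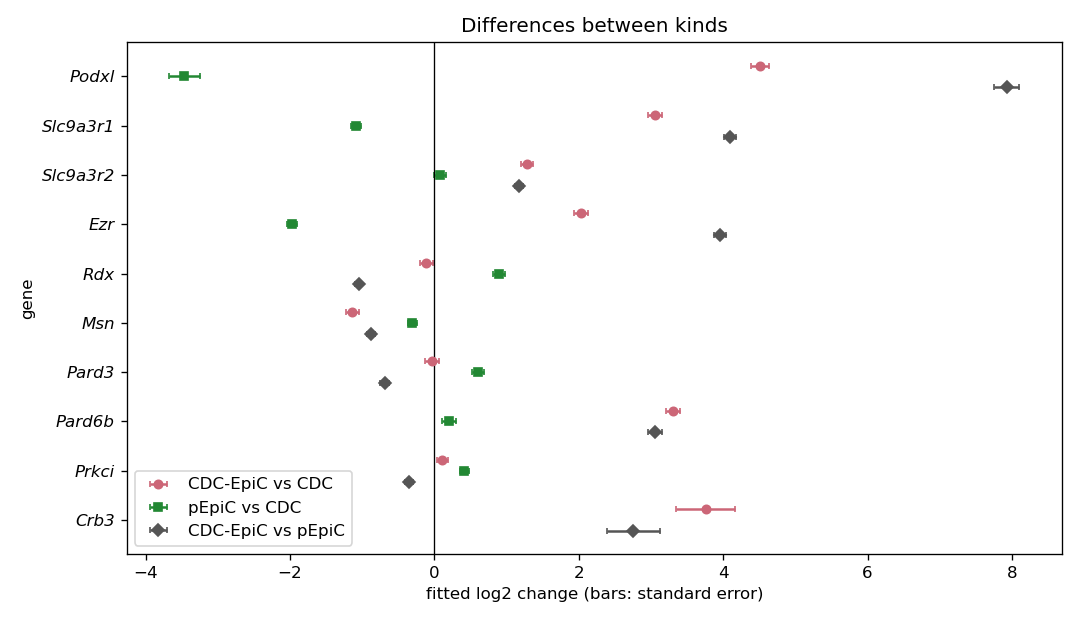
Fitted log2 differences (horizontal axis, bars are standard errors) of the 10 genes in 3 comparisons of 3 libraries each. Podxl spans −3.46 for pEpiC against CDC to 7.93 for CDC-EpiC against pEpiC, and Crb3 has no point for pEpiC against CDC because it was not tested there.

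Against pEpiC, the CDC-EpiC clone was higher by 7.93 ± 0.18 for Podxl, 4.10 ± 0.08 for Slc9a3r1, 3.96 ± 0.08 for Ezr, 3.06 ± 0.09 for Pard6b and 1.17 ± 0.06 for Slc9a3r2 on the log2 scale. It was lower by −1.05 ± 0.04 for Rdx, −0.87 ± 0.06 for Msn, −0.69 ± 0.06 for Pard3 and −0.35 ± 0.05 for Prkci. Gene length moved with the pEpiC comparisons, since the log2 difference of pEpiC from CDC rose by 0.441 for each doubling of length over 10688 genes, against 0.006 for CDC-EpiC from CDC. With an offset for length, the differences of pEpiC from CDC were 0.26 for Pard3, 0.17 for Prkci, 0.68 for Rdx, −0.78 for Slc9a3r1, −0.46 for Msn, −2.00 for Ezr and −3.83 for Podxl. Slc9a3r2 then lay at 0.30 and passed the threshold in pEpiC against CDC, and Prkci lay at −0.11 and did not pass in CDC-EpiC against pEpiC. On log2(TPM + 1) the median of all genes shifted to 0.44 for pEpiC against CDC, where 74.0% of the calls were higher against 50.8% on counts. For CDC-EpiC against pEpiC it shifted to −0.34, with 33.5% of the calls higher against 49.3%. On that scale Msn in pEpiC was 0.20 above CDC, in the other direction from its count-based value but below the median of all genes.

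Without CDC libraries 1 and 2, which held the Myh6, Hba-a1 and Alb transcripts, the differences of CDC-EpiC from CDC were 4.36 for Podxl, 3.06 for Slc9a3r1, 1.43 for Slc9a3r2, 1.93 for Ezr, 3.34 for Pard6b, 3.21 for Crb3 and −1.20 for Msn. Rdx then lay at −0.32, which brought the members past the threshold to 8, beside 7928 of the 13324 genes tested in that fit. The value for Rdx turned on CDC library 3, which measured 109 CPM, and without that library the difference was 0.0012.

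Other genes of the pathway were taken from 5 lists that hold none of the 10 members, 67 genes in all, of which 64 were in the table. The lists were chosen with earlier results of these data known, and genes were named from them by their values. Their adjusted p-values set differences against the spread between libraries of unknown origin, so they do not reach beyond these libraries. In CDC-EpiC against CDC, 36 of the 51 tested passed (68.8% of all genes), 19 higher and 17 lower, with a median log2 difference of 0.05 and 18 at least 2-fold (21.7% of all genes). In pEpiC against CDC 44 of 53 passed (78.3% of all genes), 21 higher and 23 lower, with a median of −0.05. In CDC-EpiC against pEpiC 51 of 53 passed (81.9% of all genes), 26 higher and 25 lower, with a median of 0.01. Directions were about evenly split, as they were over all genes. On log2(TPM + 1), where all genes shift as given above, the split was 22 higher and 13 lower, 31 higher and 10 lower, and 18 higher and 26 lower in the same order of comparisons.

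**Figure D4:**
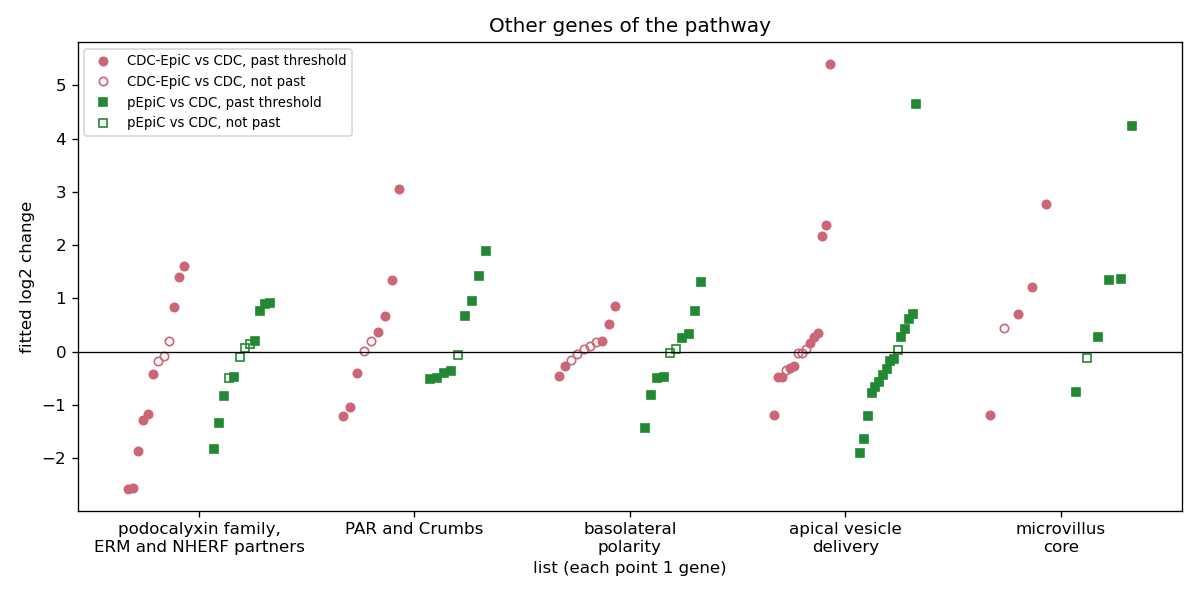
Fitted log2 difference (vertical axis) of each tested gene in 5 lists of pathway genes, for CDC-EpiC against CDC (circles) and pEpiC against CDC (squares), where filled symbols passed an edgeR adjusted p of 0.05. Rab3b at 5.41 is the highest circle, and circles lie on both sides of 0 in each list.

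Of the podocalyxin family and the ERM and NHERF partners, 9 of 12 tested passed in CDC-EpiC against CDC (68.8% of all genes). Of these, 3 were higher and 6 lower. The sialomucin relatives of podocalyxin were among the higher ones. Cd34 rose from 62.8 ± 3.3 to 192 ± 6.74 CPM (log2 1.61, edgeR adjusted p = 6.17e-11), and Podxl2, which encodes endoglycan of the same family, from 19.6 to 35.3 CPM (log2 0.85, edgeR adjusted p = 2.27e-07). Adhesion receptors that bind ERM proteins fell, with Cd44, the hyaluronan receptor, going from 164 to 27.8 CPM (log2 −2.56, edgeR adjusted p = 2.70e-13) and Icam1 from 76.1 to 12.8 CPM (log2 −2.58, edgeR adjusted p = 2.29e-12). The kinases that phosphorylate ERM proteins did not move one way. Stk10 rose by 1.402 on the log2 scale (12.1 to 32.2 CPM, edgeR adjusted p = 2.26e-09), whereas Slk fell by 0.42 and the kinase genes Rock1 and Rock2 fell by 1.18 and 1.28. Nf2, which encodes the ERM relative merlin, was at 78.4 CPM in CDC and 74.9 CPM in CDC-EpiC and did not pass. The epithelial PDZ scaffolds Pdzk1 and Pdzd3 and the exchanger Slc9a3 were below 0.11 CPM on average in each kind and were not tested.

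In pEpiC against CDC, 8 of the 12 passed in that list (78.3% of all genes), 4 higher and 4 lower. Cd34 fell by 1.82 to 18.4 CPM (edgeR adjusted p = 7.88e-09) and Podxl2 by 0.83 to 11.4 CPM (edgeR adjusted p = 5.26e-06), so the CD34 family genes Podxl, Podxl2 and Cd34 had the same order of kinds. Spn, which encodes the leukocyte sialomucin CD43, did not share that order. It was at 2.60 CPM in CDC and 0.713 in CDC-EpiC (log2 −1.86, edgeR adjusted p = 4.58e-06). In pEpiC Spn was at 1.90 ± 1.59 CPM (SD, n = 3), and its difference from CDC did not pass. The part of macrophage RNA in the Spn level of pEpiC was not tested. Cd44 fell by 1.34, Rock1 rose by 0.91 and Slk by 0.90 on the log2 scale. Against pEpiC, 11 of 12 passed in CDC-EpiC (81.9% of all genes), with 3 higher (Podxl2, Cd34 and Stk10) and 8 lower. Rock1 was lower by −2.12 and Rock2 by −2.09.

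Of the PAR and Crumbs list, 7 of 9 tested passed in CDC-EpiC against CDC (68.8% of all genes), 4 higher and 3 lower. Crb2, another Crumbs gene, rose from 6.81 to 57.0 CPM (log2 3.06, edgeR adjusted p = 3.91e-13), and its partners Patj and Mpp5 rose by 1.34 (edgeR adjusted p = 5.42e-09) and 0.68 (edgeR adjusted p = 4.56e-06). The other PAR6 genes did not follow Pard6b, as Pard6g fell from 17.3 to 7.52 CPM (log2 −1.21, edgeR adjusted p = 4.24e-08) and Pard6a was at 8.34 and 9.69 CPM, a difference that did not pass. Pard3b fell by 1.04 and Cdc42, the small GTPase that binds PAR6, by 0.39. In pEpiC against CDC 8 of 9 passed (78.3% of all genes), 4 higher and 4 lower. Pard3b was higher by 1.88, Mpp5 by 0.96 and Crb2 by 0.67, and Pard6g was lower by −0.52. Against pEpiC, CDC-EpiC was higher in Crb2 by 2.35 and in Patj by 1.79 and lower in Pard3b by −2.96. In that comparison 9 of 9 were past the threshold (81.9% of all genes), 4 higher and 5 lower.

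Of the basolateral genes, 5 of 10 passed in CDC-EpiC against CDC (68.8% of all genes), 3 higher and 2 lower, and none by 2-fold (21.7% of all genes). Mark2, a PAR1 kinase, rose by 0.86 and Llgl1 by 0.52 on the log2 scale, Dlg5 fell by 0.46 and Mark1 by 0.27, and Scrib was at 77.2 and 80.7 CPM without passing. In pEpiC against CDC 8 of 10 passed (78.3% of all genes), 4 higher and 4 lower. Erbin was higher by 1.31 and Llgl2 lower by −1.44. In CDC-EpiC against pEpiC all 10 passed (81.9% of all genes), 6 higher and 4 lower.

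The genes of apical vesicle delivery held the highest rise of the 5 lists. Of 15 tested, 11 passed in CDC-EpiC against CDC (68.8% of all genes), 6 higher and 5 lower. Rab3b, a small GTPase of regulated vesicle release, rose from 9.78 to 417 CPM (log2 5.41, edgeR adjusted p = 5.14e-15) and stood at 5.90 CPM in pEpiC. Rab11fip1, a Rab11 effector of recycling endosomes, rose from 9.41 to 49.3 CPM (log2 2.38, edgeR adjusted p = 3.92e-12), while its relative Rab11fip5 fell by 1.19 (edgeR adjusted p = 2.76e-09). Rab11a was at 117 and 115 CPM in CDC and CDC-EpiC and did not pass. In pEpiC against CDC 15 of 16 passed (78.3% of all genes), 5 higher and 10 lower. Rab27b was lower by −1.91 and Myo5b, the motor that carries Rab11 vesicles, by −1.64. In CDC-EpiC against pEpiC 15 of 16 passed (81.9% of all genes), 9 higher and 6 lower.

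Of the microvillus core genes, 5 were tested in CDC-EpiC against CDC and 4 passed (68.8% of all genes), 3 higher and 1 lower. Cobl, an actin nucleator, rose from 3.16 to 21.8 CPM (log2 2.78, edgeR adjusted p = 4.77e-12) and the actin-capping Eps8 by 0.70, and the actin bundler Pls3 fell from 205 to 89.9 CPM (log2 −1.20, edgeR adjusted p = 3.61e-08). Vil1, which encodes the intestinal bundler villin, was below 0.15 CPM on average in each kind. In pEpiC against CDC 5 of 6 passed (78.3% of all genes), 4 higher and 1 lower, with Pls3 higher by 1.37 and Eps8 lower by −0.75. In CDC-EpiC against pEpiC all 6 passed (81.9% of all genes), 4 higher and 2 lower.

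The genes whose profile over the 9 libraries was closest to that of Podxl were sought among 9473 genes, by the root mean square difference of centred log2(CPM + 1). The nearest were Vat1l (0.429), Klhdc8a (0.457), Dpysl5 (0.612), Prg4 (0.666) and Upk3b (0.700), the last a uroplakin gene used as a mesothelial marker. Upk3b measured 229 ± 8.35 CPM in CDC, 2656 ± 206 in CDC-EpiC and 69.4 ± 8.33 in pEpiC (SD, n = 3). Slc9a3r1 ranked 28 and Ezr ranked 33 on that list, and Pard6b ranked 92. For Slc9a3r1 the nearest were Rhpn2 (0.131), Gpm6a (0.214), Casz1 (0.215), Trf (0.222) and Stxbp6 (0.229). Ezr ranked 35 and Pard6b 59 in likeness to Slc9a3r1. The profiles hold 3 kinds with 3 libraries each, so a likeness mostly reflects the order and spacing of the 3 kinds.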

How the data were processed

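The authors deposited 1 table of 18245 genes with 9 library columns in each of 3 units: expected counts (30.3% not whole), FPKM and TPM. The submitters' processing notes name HISAT2 2.0.4, Bowtie2 2.2.5, RSEM 1.2.12, DESeq2 1.4.5 and the build mm10, without their roles, and strand and annotation are not given in the sources used here. The deposited FPKM and TPM values are corrected for gene length, and TPM was used wherever genes are set side by side. The 9 mean columns were not used. Expected counts were rounded, filtered with filterByExpr (minimum count 10, minimum total 15), scaled by TMM and fitted for each pair of kinds with the quasi-likelihood test of edgeR 4.0.16 in R 4.3.3, with Benjamini-Hochberg adjustment over all tested genes at 0.05, and the scripts were tested on simulated data. The SE is the log2 difference divided by the square root of F. Intervals and limits cover counting error only. GRCm38 positions came from GENCODE and promoters from RefSeq. Alternatives were limma 3.58.1 on log2(TPM + 1), DESeq2 1.42.0, other scaling, no filter, an offset for length, a replicate block and leaving out libraries.

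The 10 members and all lists were chosen with earlier results of these data known. Named from each pathway list and comparison were the 2 highest and the 2 lowest changes past the threshold with at least 10 CPM in the higher kind, and for Podxl and Slc9a3r1 the 5 nearest profiles among genes of at least 10 CPM. Further genes were named after their values were seen: Podxl2, Spn, Slk, Rock1, Rock2, Nf2, Pdzk1, Pdzd3, Slc9a3, Mpp5, Pard6a, Pard3b, Crb2, Scrib, Rab11a, Eps8 and Vil1 where the rule did not give them. Replicates of a kind differed by 4.89 to 23.0 times the sampling noise (chi-square per degree of freedom), so none was treated as a copy of another. Separate libraries of 1 RNA sample or culture can also differ by more than sampling noise, so a shared origin cannot be told from this. 1 gene that the rule gave is not reported here.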

Additional observations from a re-analysis of the deposited data

How the results depend on the processing

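The counts of genes past the threshold kept within 1.5 times of those reported under every alternative run, at 7 to 8 of the 10 members for CDC-EpiC against CDC, 7 to 9 for pEpiC against CDC and 9 to 10 for CDC-EpiC against pEpiC, and at 32 to 40, 37 to 45 and 44 to 51 of the other pathway genes. In the main fits 68.8%, 78.3% and 81.9% of all tested genes passed, in the same order of comparisons. Of 396 values of single members, 384 kept their direction and side of the threshold. Those that turned direction were small: leaving out 1 replicate at a time, Rdx ran from −0.17 to 0.0012 and Pard3 from −0.11 to 0.069 for CDC-EpiC against CDC, and Slc9a3r2 from −0.0023 to 0.13 for pEpiC against CDC, with the highest Rdx and Pard3 and the lowest Slc9a3r2 value without CDC replicate 3, while without CDC-EpiC replicate 1 Pard3 was at 0.020. On log2(TPM + 1) Pard3 was at 0.062 and Msn in pEpiC at 0.20. Slc9a3r2 in pEpiC passed on log2(TPM + 1) (0.57) and with the length offset (0.30), Pard6b in pEpiC passed with all 9 libraries in 1 fit (0.25) and on log2(TPM + 1) (0.63), and Rdx passed for CDC-EpiC against CDC without CDC libraries 1 and 2, an alternative added after seeing the data. Prkci no longer passed for CDC-EpiC against pEpiC with the length offset (−0.11). Except where stated, the cause was not tested. Podxl in pEpiC against CDC was at −3.46 on counts, −2.96 between the mean TPM of the kinds and −1.63 on log2(TPM + 1), so both the unit and the added 1 lowered its size. On log2(TPM + 1) the calls for pEpiC against CDC were 6 higher and 3 lower among members. They were 31 higher and 10 lower among the other pathway genes, where 74.0% of the calls over all genes were higher. Deviations of same-numbered libraries from their kind means had correlations of −0.180 to 0.103, against −0.195 to 0.208 for other pairs. Whether same-numbered libraries share an animal, culture or platform cannot be told from these correlations. With a replicate block the members past the threshold stayed at 7, 7 and 10 and the other pathway genes came to 35, 43 and 49. The depth limits Crb3, with 1 to 33 counts a library.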
